A study of Drosophila melanogaster with 2 samples.

Results

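Nuclear transfer RNA (tRNA) genes were examined for regions recovered by chromatin immunoprecipitation and sequencing (ChIP-seq) of Dorsal. The members were all 290 genes of biotype tRNA on the nuclear chromosome arms of the Ensembl annotation, of 17947 annotated genes on the arms when transposable elements and pseudogenes are left out. The material was whole Drosophila melanogaster larvae of the line dl-small-GFP, collected as wandering third-instar animals, with males and females pooled and age not given. The line is transgenic and makes Dorsal, from the dl-RC transcript, with GFP at its C terminus, and the precipitation used an antibody against GFP. Whether the animals also made untagged Dorsal is not stated in the labels. There was 1 group of 2 biological replicates, numbered 3 and 1, with sonicated fragments of 175 to 275 bp and 200 to 275 bp, and no second condition, so no difference between conditions could be tested. The labels point to a separate control, which enters here only through the regions called against it, and 1 label field gives the antibody as dl. Whole larvae mix all tissues, and a region bound in a few cells cannot be told apart from one bound weakly in many.

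Transfer RNAs carry amino acids to the ribosome, and their genes are transcribed by RNA polymerase III rather than by RNA polymerase II. Their promoter lies inside the gene: the factor TFIIIC recognises an A box near the 5′ end and a B box in the part that encodes the T arm, and places TFIIIB upstream of the gene, which recruits the polymerase. Transcription ends at a run of T after the gene. Dorsal is an NF-kB protein of the Toll pathway that acts at genes transcribed by RNA polymerase II, patterning the embryo and later serving in immunity.

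A summit is the position of highest enrichment in a deposited region, and a gene was counted when a summit lay within 500 bp of its body. The deposited lists differed sharply in what they held near tRNA genes. In the pooled candidate list, which holds weak as well as strong regions, 160 of the 290 tRNA genes (55.2%, exact 95% interval 49.2 to 61.0%) had a summit within 500 bp. A feature of median tRNA gene length would have one from 20.2% of the bases of the arms. Of the smaller list, which keeps regions under a limit on the irreproducible discovery rate (IDR), a summit lay near 8 genes (2.76%, exact 95% interval 1.20 to 5.36%), against 2.02% of bases, and those 8 genes shared 6 regions. By signal, each of these 6 regions held the same rank in the thresholded list as in the pooled list, from 1188 to 2620. Every pooled candidate down to rank 2620 had thus passed, so passing does not show that a region was strong in both single lists. The count of genes was 3 within 250 bp and 14 within 1000 bp. It was 19 genes for the 2718 regions of highest signal in list A, called on 1 of the ChIP alignments, and 1 gene for those in list B, called on the other. No thresholded summit lay inside a tRNA gene, which with 290 genes allows a share of up to 1.26% and so includes the 0.148% of arm positions. In the pooled list 31 candidates had their summit inside one.

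The regions that carry these counts are shown on the strand of the tRNA gene, 5′ to 3′, with the bases of the gene in capitals, from the RefSeq sequence of release 6 (dm6). The first set is 2 of the 3 thresholded regions whose summit lay within 100 bp of a tRNA gene, each upstream of it. They are the region of a tyrosine gene at chr3R:8668137-8668380 on the minus strand and of a threonine gene at chr3R:20891504-20891747.
tRNA:Tyr-GTA-1-6: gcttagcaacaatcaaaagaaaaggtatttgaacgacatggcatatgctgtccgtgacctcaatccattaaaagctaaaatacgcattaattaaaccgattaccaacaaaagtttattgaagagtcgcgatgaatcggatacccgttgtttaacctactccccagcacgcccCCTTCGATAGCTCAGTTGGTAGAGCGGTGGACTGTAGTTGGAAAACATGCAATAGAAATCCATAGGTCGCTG
tRNA:Thr-CGT-1-3: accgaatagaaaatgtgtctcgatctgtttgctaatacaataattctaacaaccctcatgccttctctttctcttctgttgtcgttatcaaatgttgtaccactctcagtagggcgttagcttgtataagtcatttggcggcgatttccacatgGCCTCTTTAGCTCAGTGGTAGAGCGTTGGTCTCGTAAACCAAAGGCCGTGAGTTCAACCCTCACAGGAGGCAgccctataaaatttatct
The second set is 3 candidates of high signal whose summit fell inside the gene and which did not pass the threshold. They lie at chr3L:3096311-3096554, chr3R:24265186-24265429 and chr2L:14598771-14599014, all on the plus strand. Their pooled signals were 63.5, 54.1 and 52.9, and others in this range, such as tRNA:Ala-CGC-1-2 with 57.0, are not shown. In list B the region of tRNA:Cys-GCA-1-3 ranked 15037. No list B region was matched to those of tRNA:Leu-TAA-4-1 and tRNA:Pro-AGG-1-2. List B did have a summit 78 bp from tRNA:Leu-TAA-4-1, at rank 17126, and 89 bp from tRNA:Pro-AGG-1-2, at rank 5556.
tRNA:Cys-GCA-1-3: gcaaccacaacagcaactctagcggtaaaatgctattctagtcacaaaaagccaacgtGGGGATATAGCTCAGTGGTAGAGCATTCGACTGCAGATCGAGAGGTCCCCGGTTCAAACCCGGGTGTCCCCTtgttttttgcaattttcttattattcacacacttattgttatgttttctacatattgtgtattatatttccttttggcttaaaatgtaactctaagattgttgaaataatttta
tRNA:Leu-TAA-4-1: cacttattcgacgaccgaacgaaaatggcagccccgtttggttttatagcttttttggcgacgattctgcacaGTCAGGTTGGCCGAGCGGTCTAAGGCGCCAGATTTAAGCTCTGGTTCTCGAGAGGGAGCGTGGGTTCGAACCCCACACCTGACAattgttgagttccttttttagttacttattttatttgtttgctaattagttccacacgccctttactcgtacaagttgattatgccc
tRNA:Pro-AGG-1-2: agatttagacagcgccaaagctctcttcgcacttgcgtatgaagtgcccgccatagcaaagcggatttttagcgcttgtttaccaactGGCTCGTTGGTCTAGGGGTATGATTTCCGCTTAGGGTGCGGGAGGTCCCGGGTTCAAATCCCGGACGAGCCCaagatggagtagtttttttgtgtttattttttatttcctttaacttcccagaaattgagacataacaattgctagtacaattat
The tyrosine gene lies only in part inside its region, whereas the threonine gene and all genes of the second set lie inside whole.

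The promoter elements are shown in 2 tyrosine genes with a thresholded summit nearby, where capitals mark matches to the A box, searched within the first 30 bases, and to the B box, searched as GTTCNANNC.
tRNA:Tyr-GTA-1-6: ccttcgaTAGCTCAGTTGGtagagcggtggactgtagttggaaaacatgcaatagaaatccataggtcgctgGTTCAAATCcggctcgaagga
tRNA:Tyr-GTA-1-7: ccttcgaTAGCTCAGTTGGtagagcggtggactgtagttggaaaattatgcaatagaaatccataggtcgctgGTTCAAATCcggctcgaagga
Both carry an intron between the boxes, so the boxes lie further apart than in most tRNA genes. On the sense strand the A box matched 271 of 290 tRNA genes (93.4%) and the B box also 271 (93.4%), against 2.99% and 1.62% of the first 73 bases of 13865 coding genes, 73 bp being the median length of a tRNA gene. The run TTTT was present in the 30 bp after 277 tRNA genes (95.5%), against 41.8% after coding genes. These matches describe sequence and not occupancy.

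The 290 genes covered 22 identities, among them an initiator methionine (iMet) and a selenocysteine (SeC) type, and ranged from 71 to 186 bp. They held 95 distinct sequences, and 238 genes had at least 1 identical copy elsewhere on the arms, the largest such family holding 13 genes. Whether reads that align to several places were kept is not given in the sources used here, and its part in the counts was not tested.

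Candidate summits were frequent around tRNA genes compared with the arms as a whole. The 55.2% of tRNA genes with a candidate within 500 bp was 2.73 times the share of positions on the 5 arms that hold tRNA genes. Within 100 bp the count was 82 genes (28.3%, exact 95% interval 23.2 to 33.8%) against 6.07% of positions, and for a summit inside the gene it was 31 genes (10.7%) against 1.63%. The 2 lists made from single ChIP alignments gave similar counts when taken each on its own. In list A 162 genes had a candidate within 500 bp and 82 within 100 bp, and in list B 161 and 83. The number inside the gene was 31 in list A and 22 in list B. Similar counts do not mean the same regions. Of the 31 pooled candidates with a summit inside a gene, most had a matching region in only 1 of the 2 lists. That list was more often list A than list B, and few candidates had a match in neither. The deposited descriptions name 1 input alignment that both lists share, so the likeness of their counts is not independent support.

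Compared with other genes measured in the same way, from the 5′ end of the gene, 155 tRNA genes (53.4%, exact 95% interval 47.5 to 59.3%) had a candidate within 500 bp, against 30.4% of all 17947 genes. For protein-coding genes the share was 30.2%, for small nucleolar RNA genes 34.2% (92 of 269) and for small nuclear RNA genes 37.5% (12 of 32, exact 95% interval 21.1 to 56.3%). Of 99 ribosomal RNA genes 1 had a candidate.

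**Figure D1:**
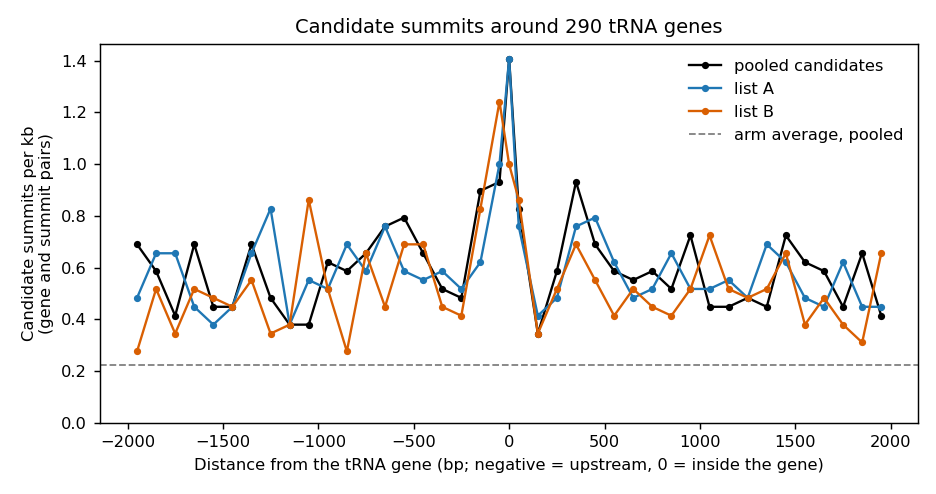
Candidate summits per kb (vertical axis) by distance from 290 tRNA genes in bp, upstream to the left and downstream to the right in 100 bp bins, for the pooled list and for lists A and B; the dashed line is the average over the arms, 0.223 per kb. All 3 lists have their highest value inside the gene or in the first 100 bp upstream, and stay above the dashed line out to 2000 bp on both sides.

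The density was highest at the gene and stayed above the arm average at a distance. In the pooled list there were 1.41 summits per kb inside tRNA genes, 0.879 in the first 100 bp on either side, 0.638 from there to 500 bp and 0.524 from 1000 to 2000 bp, against 0.223 over the arms. These figures count pairs of a gene and a summit, and in clusters 1 summit pairs with several genes. Isolated genes, where this hardly occurs, showed a narrower profile. They had 1.27 per kb inside the gene, 0.663 within 100 bp, 0.346 from there to 500 bp and 0.355 from 1000 to 2000 bp. The same steps for isolated genes were 0.794, 0.723, 0.316 and 0.386 in list A, and 0.317, 0.904, 0.211 and 0.235 in list B. In list B the highest value was thus beside the gene, from 15 pairs, and only 2 summits lay inside an isolated gene.

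The context of the genes was separated by position alone. A gene within 500 bp of a coding start site was called promoter-near (33 genes), any other gene with a second tRNA gene within 2000 bp was called clustered (174 genes), and the remaining 83 were isolated. A pooled candidate lay within 500 bp of 15 promoter-near genes (45.5%, exact 95% interval 28.1 to 63.6%), 110 clustered genes (63.2%, exact 95% interval 55.6 to 70.4%) and 35 isolated genes (42.2%, exact 95% interval 31.4 to 53.5%). The interval of the promoter-near genes overlapped both others. All 3 shares exceeded the 20.2% of arm positions. Within 100 bp the shares were 21.2%, 32.2% and 22.9%. Lying inside a coding gene made little difference, with candidates at 71 of 134 genes inside (53.0%) and 89 of 156 outside (57.1%). Neighbouring genes share summits, so the intervals are narrower than the number of independent loci warrants.

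Thresholded regions lay within 500 bp of 1 promoter-near gene (3.03%, exact 95% interval 0.0767 to 15.8%), 7 clustered genes (4.02%, exact 95% interval 1.63 to 8.11%) and 0 of 83 isolated genes, which allows up to 4.35%. These 3 intervals overlapped, and at this limit the order of the classes was the same as for candidates. The order depended on the limit. With coding start sites taken within 1000 bp, the shares were 4 of 80 promoter-near genes (5.00%) and 4 of 142 clustered genes (2.82%). Against 2.02% of arm positions the 2.76% of all tRNA genes was a ratio of 1.37, with the background inside the interval. Measured from the 5′ end, 7 tRNA genes (2.41%, exact 95% interval 0.976 to 4.91%) had one, against 5.92% of all genes, 6.28% of protein-coding genes, 12.5% of small nuclear RNA genes (4 of 32) and 2.23% of small nucleolar RNA genes (6 of 269). The interval for tRNA genes lay below the share of all genes and held that of small nucleolar RNA genes.

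Candidates near tRNA genes ranked as a set above the middle of the pooled list, with few among the strongest. Signal is the enrichment of ChIP over control that the authors' caller gave to a region, used here only to rank regions within a list. Among 162 candidates within 500 bp of a tRNA gene the signal ranged from 21.0 to 131.3 with a median of 33.1, against a median of 29.2 over all 29970 candidates on the arms. Their median rank was 11490, against 15013.5 for all candidates on the arms. For the 42 candidates near isolated genes it was 16675. Of the 162, 6 passed the threshold (3.70%, exact 95% interval 1.37 to 7.89%), against 8.98% of all candidates. Candidates near coding start sites but not near tRNA genes passed in 1387 of 6354 cases (21.8%), and those near neither in 1297 of 23454 (5.53%). Where a candidate near a tRNA gene also lay within 500 bp of a coding start site, 3 of 24 passed (12.5%, exact 95% interval 2.66 to 32.4%), and where it did not, 3 of 138 (2.17%, exact 95% interval 0.451 to 6.22%).

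**Figure D2:**
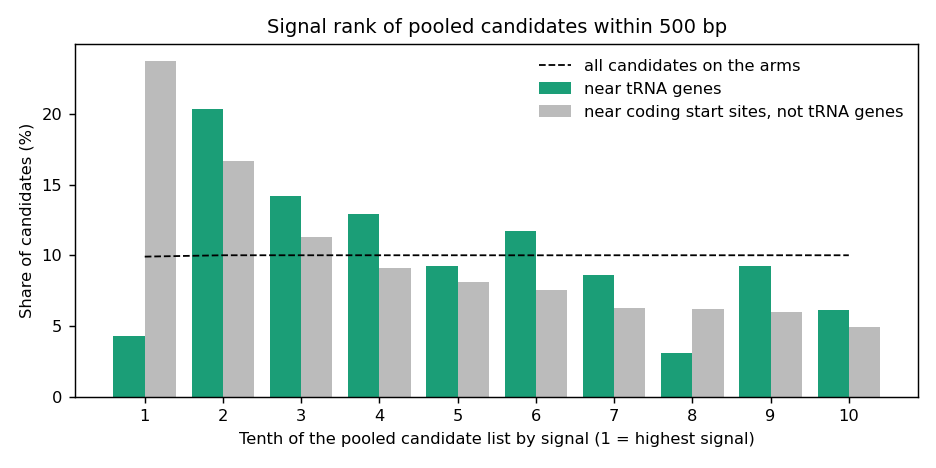
Share of candidates in percent (vertical axis) in each of 10 equal rank groups of the pooled list by signal (horizontal axis, 1 being the highest), for the 162 candidates within 500 bp of tRNA genes, the 6354 near coding start sites but not tRNA genes, and all on the arms (dashed). Near tRNA genes group 1 holds 4.32% and group 2 holds 20.4%, whereas near coding start sites group 1 is the fullest at 23.8%.

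By rank, 7 of these 162 candidates stood in the best of 10 equal rank groups of the pooled list (4.32%) and 33 in the next (20.4%), against 9.91% of all candidates in the best group. The 7 were the 6 that passed and the candidate of rank 2959, so the share in the best group restates the passing share. The single lists differed in their best regions. In list A, 13 of 155 candidates near tRNA genes were among its 2718 best regions (8.39%, exact 95% interval 4.54 to 13.9%), against 8.98% of all candidates in that list on the arms. In list B it was 1 of 144 (0.694%, exact 95% interval 0.0176 to 3.81%), against 8.97%. In gene counts, 19 tRNA genes lay within 500 bp of the best regions of list A and 1 of those of list B. That 1, named after its value was seen, was tRNA:Gly-GCC-2-1 at 2L 14530854 to 14530924, 468 bp from a summit of signal 39.5 and rank 2459. In both lists the candidates near tRNA genes ranked nearer the top than all candidates on the arms. The median ranks were 11499 in list A, against 15015, and 11865 in list B, against 15016.5. Nothing in the sources used here ties list A or list B to replicate number 1 or 3.

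The 6 thresholded regions are described in the order of their signal, with the value in each single list beside the pooled one. Their pooled signals, from 75.1 to 131.3, can be read against a minimum of 73.3 and a median of 119.5 over all 2718 thresholded regions.

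The strongest lay 297 bp downstream of tRNA:Ala-TGC-2-1, an alanine tRNA gene (FBgn0011879, 2R 17392215 to 17392286), with a pooled signal of 131.3 and rank 1188. Its signal was 108.8 in list A, at rank 723, and 30.7 in list B, at rank 3673. The gene is paired with tRNA:Ala-TGC-1-1, and the nearest coding start site, that of CG10939, was 2010 bp from the summit. The region itself at 2R 17392461 to 17392704 did not touch the gene.

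The next lay 83 bp upstream of tRNA:Ile-TAT-1-1, an isoleucine gene with an intron (FBgn0052480, 3L 769503 to 769600), with a pooled signal of 103.5 and rank 1664. List A gave 79.0 at rank 1203 and list B 29.0 at rank 4026. No coding start site was near, the closest being that of hng3 at 13931 bp. The second gene of this kind, tRNA:Ile-TAT-1-2, stood 943 bp from the thresholded summit, and no candidate in the pooled list lay within 500 bp of it.

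The third lay 491 bp upstream of tRNA:Arg-ACG-1-3, an arginine gene (FBgn0011956, 2R 6169607 to 6169679), with a pooled signal of 100.6 and rank 1729. Its summit was 29 bp from a coding start site of EcR, the ecdysone receptor gene, and the tRNA gene is 1 of 10 identical copies. List A gave 75.0 at rank 1312 and list B 17.2 at rank 10148, so this region was a weak candidate in list B.

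The fourth lay 384 bp downstream of tRNA:Arg-TCG-2-4 (FBgn0053551, 3R 8862933 to 8863005), inside pyd, the gene of the junction protein polychaetoid, and 144 bp from a coding start site of pyd. The pooled signal was 77.8 at rank 2492, with 63.2 in list A at rank 1754 and 20.3 in list B at rank 7479. It holds GAGAGAG within 100 bp of the summit. The gene tRNA:Arg-TCG-2-4 had a further candidate with its summit inside the gene, with a pooled signal of 49.3 at rank 5155, which did not pass.

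The fifth lay between 2 tyrosine genes with introns, 51 bp upstream of tRNA:Tyr-GTA-1-6 (FBgn0012026, 3R 8668116 to 8668208) and 353 bp downstream of tRNA:Tyr-GTA-1-7 (FBgn0012025, 3R 8668612 to 8668705). The pooled signal was 75.5 at rank 2602. List A gave 45.2 at rank 3092 and list B 31.6 at rank 3550, the only 1 of the 6 regions outside the 2718 best of both lists. The genes lie inside CG8036 and p, and the summit was 391 bp from a coding start site of CG8036.

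The sixth lay 32 bp upstream of tRNA:Thr-CGT-1-3 (FBgn0051333, 3R 20891658 to 20891729), a threonine gene, and 433 bp downstream of its identical neighbour tRNA:Thr-CGT-1-2 (FBgn0051334, 3R 20891122 to 20891193). The pooled signal was 75.1 at rank 2620, with 54.8 in list A at rank 2189 and 18.9 in list B at rank 8496. It was the nearest of the 6 to a tRNA gene, and the nearest coding start site, that of Ktl, was 5694 bp away.

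**Figure D3:**
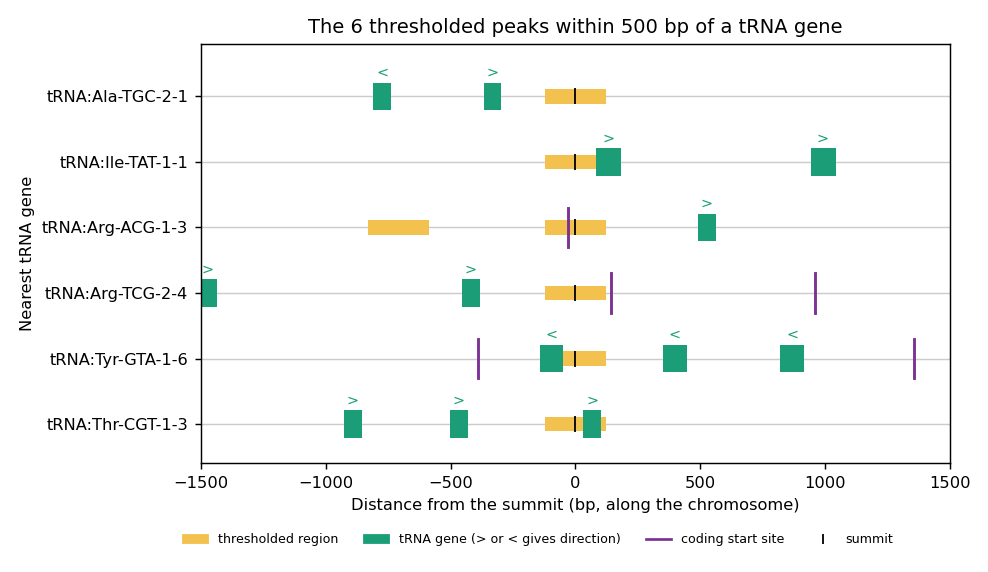
The 6 thresholded regions (yellow) with tRNA genes (green) and coding start sites (purple), by distance from the summit in bp along the chromosome, ordered by signal from 131.3 at the top to 75.1 at the bottom. The summits nearest to a tRNA gene are those at Thr-CGT-1-3, Tyr-GTA-1-6 and Ile-TAT-1-1, at 32, 51 and 83 bp, and 3 of the 6 lie within 500 bp of a coding start site.

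Across the 6 regions, 5 ranked among the 2718 best in list A and none in list B. The same shares over all thresholded regions were not computed. Whether this contrast is particular to regions near tRNA genes was therefore not tested. Coding start sites lay within 500 bp of 3 summits, those at EcR, pyd and CG8036, and more than 2000 bp from the other 3. All 6 lay in groups of 2 or 3 tRNA genes at a spacing of 2000 bp. The count of 8 depended on the 500 bp limit, as the counts at 250 and 1000 bp show. The members just inside it had summits at 384, 433 and 491 bp, and the nearest outside it, tRNA:Ala-TGC-1-1, tRNA:Arg-TCG-2-3 and tRNA:Pro-AGG-1-1, at 738, 738 and 768 bp. The median distance from a tRNA gene to a thresholded summit was 19299.5 bp, and to a candidate 386.5 bp.

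The strongest candidates that did not pass came close to the threshold. The first lay 440 bp downstream of tRNA:Ile-AAT-1-8, with a pooled signal of 69.0 at rank 2959. That tRNA gene lies inside ATP8A, 311 bp from a coding start site of ATP8A. The second, with 67.5 at rank 3059, lay 287 bp downstream of tRNA:Thr-CGT-1-1 and 66 bp from tRNA:Thr-CGT-1-2. The third, with 65.9 at rank 3170, lay 378 bp upstream of tRNA:Tyr-GTA-1-8. The threonine and tyrosine genes belong to the same groups as the fifth and sixth regions above. The next candidate had its summit inside tRNA:Cys-GCA-1-3, a cysteine gene inside the chitinase gene Cht7, and also lay within 500 bp of tRNA:Cys-GCA-1-2, tRNA:Lys-CTT-1-12 and tRNA:Lys-CTT-1-13. Its pooled signal was 63.5 at rank 3387, with 57.4 in list A at rank 2037 and rank 15037 in list B.

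That region was also the strongest of the 31 candidates with a summit inside a tRNA gene, whose signals ran from 22.5 to 63.5 with a median of 36.8. Others of high signal were tRNA:Ala-CGC-1-2 with 57.0, tRNA:Glu-CTC-2-2 with 54.1 and tRNA:Leu-TAA-4-1, an isolated leucine gene, with 54.1. Of the 31, 25 were in genes with an identical copy, which 238 of all 290 tRNA genes have. The identical genes as a whole had a candidate within 500 bp in 133 of 238 cases (55.9%) and the genes with no identical copy in 27 of 52 (51.9%, exact 95% interval 37.6 to 66.0%). For thresholded regions the counts were 4 of 238 (1.68%, exact 95% interval 0.460 to 4.25%) and 4 of 52 (7.69%, exact 95% interval 2.14 to 18.5%), with intervals that overlap.

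Groups of neighbouring tRNA genes were counted, and some of the larger ones are described singly. With 2000 bp as the largest gap the 290 genes formed 90 single genes and 69 groups, and 50 groups and 38 single genes had a candidate within 500 bp. All 7 groups of 5 or more genes had at least 1 candidate and none had a thresholded region, which 6 of all 69 groups had. No background for spans of their length was computed, and 7 groups are too few to set them apart. The group of 5 glutamate and 2 initiator methionine genes at 2R 19725620 to 19728958 had 7 pooled candidates, 6 in list A and 7 in list B, and each of its 7 genes had one within 500 bp. The best of them had a signal of 54.1, at rank 4390. The group of 5 arginine and 2 serine genes at X 14014814 to 14017284 had 1 candidate, with a signal of 29.6 at rank 14599. The group of 5 isoleucine and 2 leucine genes at 2R 13430282 to 13432794 had 4 candidates, the best with a signal of 45.6. A group of 4 histidine genes at 2R 12333926 to 12336489 had none in the pooled list, 2 in list A and none in list B.

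Among arms with tRNA genes, 8 of 24 genes on X had a candidate (33.3%, exact 95% interval 15.6 to 55.3%), and the shares on the other arms ran from 24 of 48 genes on 3L to 48 of 79 on 3R (60.8%). Thresholded regions were near 5 genes on 3R, 2 on 2R, 1 on 3L and none on 2L or X. The shares of positions near a candidate or thresholded summit were not computed for each arm. Whether tRNA genes differ between arms beyond that background was therefore not tested.

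**Figure D4:**
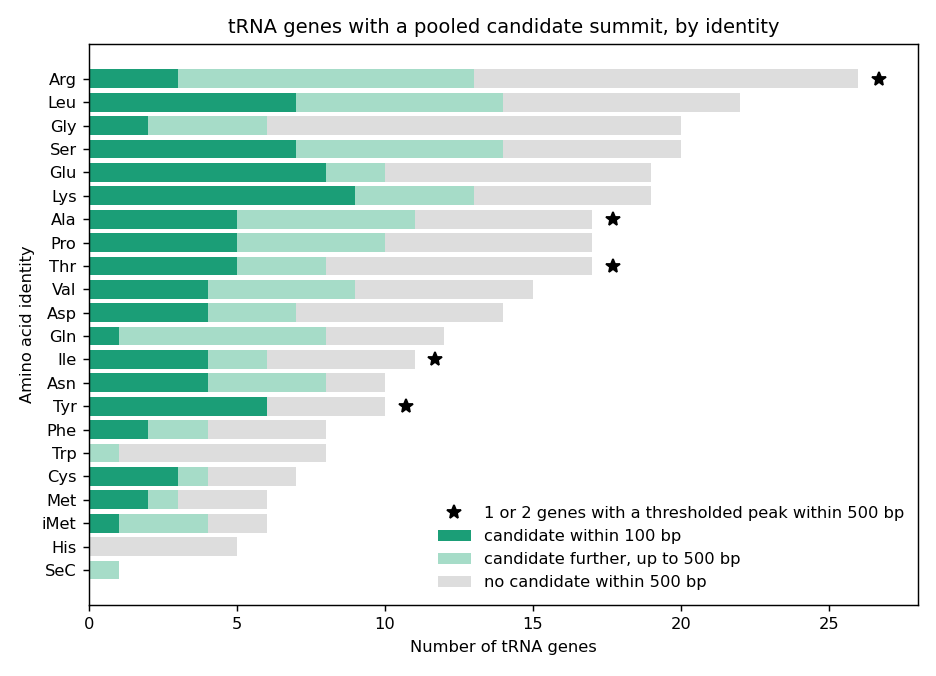
Number of tRNA genes (horizontal axis) by amino acid identity, split by the distance to the nearest pooled candidate summit; stars mark identities in which 1 or 2 genes had a thresholded region within 500 bp. Candidates occur in 21 of the 22 identities, with none for the 5 histidine genes and 1 for the 8 tryptophan genes.

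By amino acid, 21 of the 22 identities had at least 1 gene with a candidate. The shares with 10 or more genes ran from 6 of 20 for glycine (exact 95% interval 11.9 to 54.3%) to 8 of 10 for asparagine (exact 95% interval 44.4 to 97.5%), and neighbours in this order did not differ beyond their intervals. Histidine had 0 of 5 genes, which allows up to 52.2%, and tryptophan 1 of 8. In list A, histidine had 2 genes with a candidate and tryptophan 2, and in list B, 0 and 7, so these low counts were not stable between lists. The tyrosine genes, all with introns, had a candidate within 100 bp in 6 of 10 cases (60.0%, exact 95% interval 26.2 to 87.8%). The single selenocysteine gene had 1 candidate, 322 bp away, with a signal of 36.8 at rank 9127. The 16 genes with an intron, a division made after the values were seen, had a candidate within 100 bp in 9 cases (56.2%, exact 95% interval 29.9 to 80.2%), against 73 of 274 genes without one (26.6%). A thresholded region was near 3 of the 16 (18.8%, exact 95% interval 4.05 to 45.6%) and 5 of the 274 (1.82%), and 2 of the 3, tRNA:Tyr-GTA-1-6 and tRNA:Tyr-GTA-1-7, share 1 region. Of the 16, 10 are tyrosine genes, several of them neighbours, so these are few independent loci.

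The sequence around the summits was also described. The run GAGAGAG, searched on both strands within 100 bp of the summit, was present at 5 of 162 candidates near tRNA genes (3.09%, exact 95% interval 1.01 to 7.06%), against 9.02% of all candidates. For candidates within 100 bp of a tRNA gene it was 2 of 80 (2.50%). At the 6 thresholded summits it was present at 2, against 43.9% of all thresholded summits on the arms. The dl motif, a kappaB site, was found at 0 of those 6, which allows up to 45.9%, against 1.52% of all thresholded summits on the arms. It was found at 1 of the 162 candidates (0.617%, exact 95% interval 0.0156 to 3.39%), against 1.40% of all candidates. The internal promoter elements were present whether or not a candidate was near: the B box matched 80 of 82 genes with a candidate within 100 bp (97.6%) and 121 of 130 genes with none within 500 bp (93.1%), and the A box 78 (95.1%) and 116 (89.2%). TTTT followed all 82 genes with a candidate within 100 bp and 120 of the 130 (92.3%).

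Protein genes of the tRNA pathway were looked up from 4 lists, of which 80 genes were found. A thresholded summit lay within 500 bp of a coding start site in 3 (3.75%, exact 95% interval 0.780 to 10.6%), against 8.81% of all coding genes, and a pooled candidate in 14 (17.5%, exact 95% interval 9.91 to 27.6%), against 32.8%. For candidates the background was above the interval. Of 20 cytosolic aminoacyl-tRNA synthetases, which load tRNAs with amino acids, GluProRS had a thresholded summit 46 bp from a start site (signal 128.0, rank 1240, 3R 23952136 to 23958391), with 65.1 in list A and 55.9 in list B. It encodes the joined enzyme for glutamate and proline. AlaRS, ArgRS, AsnRS and AspRS had none. Of 15 mitochondrial synthetases, ArgRS-m had one at 297 bp (signal 81.9, rank 2309), and AlaRS-m, AsnRS-m, AspRS-m and CysRS-m had none.

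None of the 18 genes of RNA polymerase III and its factors had a thresholded summit, which allows up to 18.5%, including the polymerase subunits Polr3A, Polr3B, Polr3C and Polr3D. The 4 with a candidate were Polr3E, Polr3G, Maf1, a repressor of the polymerase, and Pbp49, a subunit of the complex that binds small nuclear RNA promoters, with best signals from 30.9 to 56.3. Of 27 genes for processing and modification, Trm7-34, a methyltransferase for the anticodon loop, had a thresholded summit 402 bp from its start site (signal 169.9, rank 795), and RNaseZ, Rpp30, Rpp20 and Pop1 had none.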

How the data were processed

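ChIP-seq regions came from 1 group of 2 replicates. Per the deposited description files, the authors called candidate regions in dm6 on each ChIP alignment against a control (here list A and list B) and on both together (pooled), and thresholded them by IDR; which aligner, caller, versions and IDR limit they used is not stated in the labels or files. Each candidate list holds about 30000 regions, so whether a weak region is listed depends on that limit. The deposited signal value of each region is the authors' enrichment over control and is not normalised between lists. The files hold no read counts, so depth is unknown, and dm3 lists were not used here.

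Genes came from Ensembl release 115 (BDGP 6.54) and sequence from RefSeq release 6. All regions on the arms ended within the chromosome lengths. Summits were start plus offset, written 1-based. The sequence of 1 region is not reported here. Counting was tested on simulated data (Python 3.11.15, NumPy 2.4.6, pandas 2.3.3, SciPy 1.17.1). Intervals are Clopper-Pearson 95% intervals and cover counting of genes or regions only; no chance test was made, since genes and regions are not replicates. Backgrounds are shares over arm positions (bases other than N), all genes or all candidates. Single-list alternatives took the 2718 regions of highest signal. The tRNA pathway lists held 90 symbols, of which 9 were not found and 1 repeated a gene.

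The members and lists were chosen with earlier results of these data known. Genes named are every tRNA gene with a thresholded summit within 500 bp, the 6 with the strongest candidate that did not pass and 1 that tied with the last of them, the 3 nearest on either side of the 500 bp limit, and pathway genes by signal or list order. Other genes named, in arrays, inside-gene summits and identities, were chosen after their values were seen.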

Additional observations from a re-analysis of the deposited data

How the results depend on the processing

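Of 46 alternatives for 8 results, 31 stayed within 1.5 times the count or inside the interval of the share, and 15 did not. The 160 tRNA genes with a candidate ranged from 127 to 208 under other windows, lists and overlap rules. The 8 genes with a thresholded summit became 3 and 14 with windows of 250 and 1000 bp, 1 at or above the median signal, 19 when list A replaced it and 1 when list B did. The clustered share became 1.15% at 250 bp, 0.575% at the median signal, 8.62% with list A and 0.575% with list B. The promoter-near share and the share of summits with GAGAGAG became 0% at the median signal and with list B. The 3 pathway genes became 1 at 250 bp and 1 with list B. The share of candidates that passed stayed between 2.73 and 3.70%. Fewer regions in the median-signal alternative and narrower windows lower a count by construction; for the gap between lists A and B the cause was not tested. No paired analysis was possible because there is 1 group. With 8 genes at 6 regions, shares by class rest on few loci, and read depth, which limits the weak candidates, is unknown.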
